A study of Mus musculus with 48 samples.

Results

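RNA-sequencing libraries of amygdala punches from 48 female mice were ranked by the level of Slc17a6, the gene of the vesicular glutamate transporter VGLUT2, and the 12 highest libraries were compared with the 12 lowest. The libraries were selected on the measured level of Slc17a6 and not by any label, so 12 of 48 formed each set, 24 were in neither, and every difference between the sets is given as a description with no test. The mice were wild type (WT) or carried a heterozygous deletion of Brd1 exons (Brd1+/-), all on a C57BL/6NTac background at young adult age, and received vehicle, the tricyclic antidepressant imipramine (IMN, at 10 mg/kg) or the serotonin reuptake inhibitor fluoxetine (FLX, at 5 mg/kg), giving 6 labelled groups of 8 mice. All mice, vehicle mice included, were injected subcutaneously and went through behavioural tests that ended with the forced swim test before they were killed. The right amygdala was taken with a 1 mm needle from a 1 mm coronal section, and each library was 1 mouse. Values are in TPM, a transcript level scaled to gene length and to the library total, and differences are on the log2(TPM + 0.1) scale, which understates the change of genes with low values.

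Glutamate neurons load their vesicles with VGLUT1, encoded by Slc17a7, in cortex, hippocampus and basolateral amygdala, and with VGLUT2 in thalamus, hypothalamus, other subcortical nuclei and part of the medial amygdala. Hypothalamic neurons are further marked by peptides such as hypocretin (Hcrt), melanin-concentrating hormone (Pmch), oxytocin (Oxt) and vasopressin (Avp), and by homeodomain factors such as Otp that set their identity. The amygdala lies next to the lateral hypothalamus on its medial side and to the striatum above, and striatal projection neurons, which are GABA neurons, carry high levels of the dopamine-signalling gene Ppp1r1b and of the adenosine receptor gene Adora2a. In bulk tissue, fewer cells of a type and less RNA per cell cannot be told apart.

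Slc17a6 (ENSMUSG00000030500, chromosome 7, 51622006 to 51671119, GRCm38) ran from 0.0850 to 143 TPM over the 48 libraries. It was 72.5 to 143 TPM (median 91.2) in the high set, 10.7 to 64.3 TPM (median 24.3) in the 24 libraries between, and 0.0850 to 7.89 TPM (median 3.31) in the low set. At the edges, the lowest library of the high set, WT FLX replicate 8, had 72.5 TPM and the next one down, WT IMN replicate 6, 64.3 TPM. The highest library of the low set, Brd1+/- FLX replicate 6, had 7.89 TPM and the next one up, Brd1+/- IMN replicate 8, 10.7 TPM. The high boundary thus fell in a continuous run of values. Every labelled group had libraries in the low set, and the high set drew on every group except Brd1+/- FLX. WT FLX gave 5 of its 8 libraries to the high set and 1 to the low set, whereas Brd1+/- FLX gave 0 and 2. The other groups each gave 1 or 2 libraries to the high set and 2 or 3 to the low set. By the number ranges of the mouse codes in the labels, 3 of 16, 4 of 18 and 5 of 14 libraries were in the high set, and 5, 3 and 4 in the low set. The first of these ranges held all the vehicle mice and no drug mice, so it cannot be told apart from vehicle treatment. In the last range, the lower codes were Brd1+/- mice and the higher codes WT mice.

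**Figure D1:**
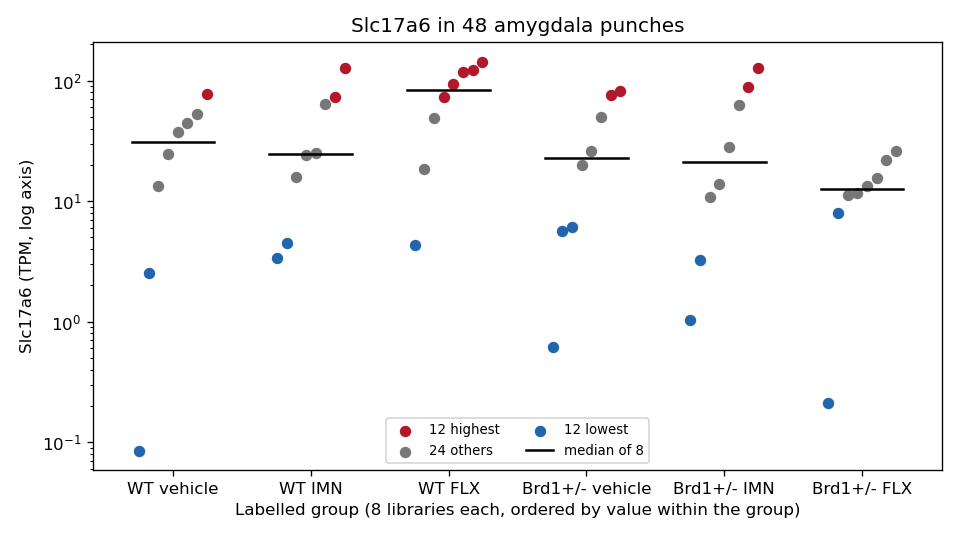
Slc17a6 level (TPM, log axis) of each of 48 libraries by labelled group, with 8 libraries a group, the 12 highest in red, the 12 lowest in blue and a line at each group's median. Libraries of both sets stand in 5 of the 6 groups, and Brd1+/- FLX, which has none of the highest libraries, reached only 25.9 TPM.

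The files list 52636 genes, and the number of genes above 0 was similar in the sets, 23420 to 25704 in the high set and 24050 to 26044 in the low set. The read depth of each library is unknown because the values are TPM, and the paper gives only a minimum number of reads per sample. Brd1, the targeted gene, was 24.3 ± 3.85 TPM (SD, n = 24) in Brd1+/- and 35.1 ± 4.37 TPM (SD, n = 24) in WT. Over the 26402 genes that reached 0.1 TPM in at least 12 of the 48 libraries, Slc17a6 left out, the difference (log2) had a median of 0.14 with the deposited values and of -0.01 with median-ratio scaling. Of these genes, 2027 (7.68%) were at least 2-fold higher in the high set and 1389 (5.26%) at least 2-fold lower. With median-ratio scaling these counts were 1645 and 1682, so more genes were lower than higher, and with an offset of 0.01 or 1 TPM in place of 0.1 they were 3046 and 2472 or 958 and 599. In 430 genes (1.63%) each high library stood above each low library, and in 89 (0.337%) each stood below. The counting was not stated to use strand, and 44 of the 205 listed or named genes share exonic bases with a gene on the other strand, among them Lhx5, Glra1, Ppp1r1b, Pmch, Penk, Ebf3, Dlx1, Syndig1l and Cib2. A further overlap, with a gene on the same strand, was present for 9 genes, Prlr, Neurod1 and Tuba1b among them. In the shared bases, reads of these genes and of their partners cannot be told apart. Of the 174 listed genes in the files, 164 passed the filter, and a gene could pass through the high set alone. The shares given above are the background for the counts that follow, and since the same contrast chose the libraries nothing is read from a list's count against them.

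Transcription factors of subcortical glutamate neurons and of the diencephalon were higher in the high set. Of 25 such genes in the files, 21 passed the filter on low values, 12 were at least 2-fold higher and 0 at least 2-fold lower. The list median was 1.49 (log2) over all 25, beside 0.14 over all genes that passed the filter. List medians here and below include listed genes under the filter. Lhx5, a LIM homeodomain factor of the embryonic forebrain and hypothalamus (chromosome 5, 120431699 to 120441223), was 0.131 to 14.6 TPM (median 9.79) in the high set and 0 to 0.222 TPM (median 0) in the low set. Of the high libraries, 1 overlapped with the low set, WT vehicle replicate 4 at 0.131 TPM, the next was WT FLX replicate 8 at 0.342 TPM, and the other 10 were at or above 2.71 TPM. Fezf1, a zinc-finger factor of the forebrain and ventromedial hypothalamus (chromosome 6, 23245044 to 23248362), was 0.147 to 20.2 TPM (median 5.64) in the high set and listed at 0 in each of the 12 low libraries. Its lowest high value came from Brd1+/- vehicle replicate 7, at 0.147 TPM. Otp, which specifies oxytocin, vasopressin and other neuroendocrine neurons as well as cells of the medial amygdala, was 0.545 to 52.9 TPM (median 8.20) against 0 to 1.13 TPM (median 0), a difference of 6.06. The sets overlapped by 1 high library, again Brd1+/- vehicle replicate 7, at 0.545 TPM.

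Sim1, a partner of Otp in the paraventricular lineage, was 0.222 to 8.60 TPM (median 1.52) in the high set and 0 to 0.0647 TPM (median 0) in the low set, without overlap. Barhl2, a homeodomain factor of the diencephalon, was 1.09 to 7.64 TPM (median 3.94) against 0 to 0.174 TPM (median 0), and Lhx9, a LIM factor of thalamic, hypothalamic and amygdalar neurons, 1.12 to 8.71 TPM (median 5.25) against 0 to 0.506 TPM (median 0.104). Neither overlapped. The other factors without overlap were Nhlh2, a basic helix-loop-helix factor of hypothalamic neurons (log2 difference 4.15), and Ebf3, a factor of early neuronal differentiation (2.85). Lhx1 (3.88), Foxb1 (3.02) and Lmx1b (1.12) were at least 2-fold higher with overlap. Leaving out 1 library took Lmx1b to as low as 0.66, and other alternatives took Lmx1b to 0.40, Foxb1 to 0.97 and Lhx1 to 1.80. Lmx1b was highest in Brd1+/- vehicle replicate 7, at 8.99 TPM, a library that also had 101 TPM of Th, the gene of tyrosine hydroxylase in catecholamine neurons. Not all hypothalamic factors followed. Nkx2-1, which patterns the ventral hypothalamus and part of the basal forebrain, was 1.29 to 16.3 TPM (median 7.33) against 2.29 to 23.0 TPM (median 6.27), and Nr5a1, a marker of the ventromedial nucleus, 0 to 0.606 TPM (median 0) against 0 to 0.475 TPM (median 0.116). Tbx3 and Rax, genes of the infundibular region, differed by -0.02 and -0.04. Nkx2-4, Hmx2, Hmx3 and Six6 were too low for the filter, yet Hmx3 reached 10.0 TPM in WT IMN replicate 4 and 7.88 TPM in WT FLX replicate 1 against at most 0.138 TPM in the low set.

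Among the lists, hypothalamic neuropeptide genes had the widest differences upward, with a wide spread inside the high set. Of 19 in the files, 17 passed the filter, 12 were at least 2-fold higher and 1, Tac1, at least 2-fold lower, with a list median of 2.77. Avp was 0 to 737 TPM (median 107) in the high set and 0 to 3.82 TPM (median 0) in the low set. Oxt was 0 to 524 TPM (median 60.1) in the high set and listed at 0 in each low library. Both were at or above 10 TPM in the same 10 of 12 high libraries while Oxt was at 0 in WT vehicle replicate 4 and WT FLX replicate 8, with Avp at 0 and 1.74 TPM. The genes are neighbours on chromosome 2 (Oxt 130576173 to 130577054 on the plus strand, Avp 130580620 to 130582554 on the minus strand, GRCm38), end to end with 3565 bases between them. Pmch was 0 to 5702 TPM (median 92.8) against 0 to 4.798 TPM (median 0), and Hcrt 0 to 3878 TPM (median 14.8) against 0 to 1.37 TPM (median 0). Hcrt was at or above 10 TPM in 6 high libraries, each of which also had Pmch, Oxt and Avp above that level. WT IMN replicate 4 held the most, with 3878 TPM of Hcrt and 5702 TPM of Pmch, followed for Hcrt by WT FLX replicate 3, WT FLX replicate 2 and Brd1+/- IMN replicate 5, at 1404, 1075 and 277 TPM. WT FLX replicate 1 instead led in Oxt and Avp, at 524 and 737 TPM, with 88.7 TPM of Hcrt. The high libraries were therefore of more than one kind by these 4 genes, and 2 of them had none of the 4 at 10 TPM, a level chosen after the values were seen.

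**Figure D2:**
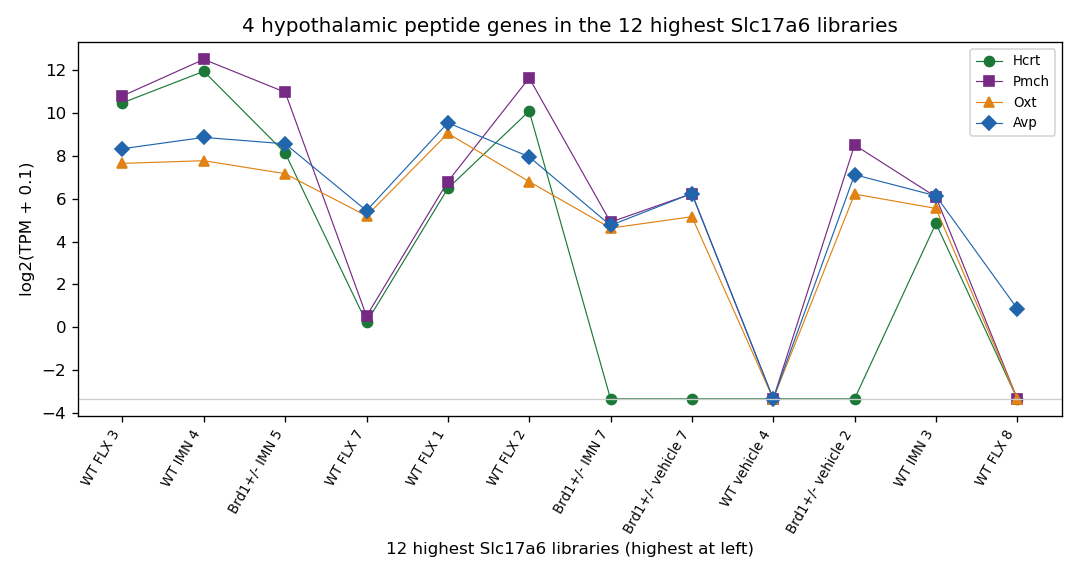
Level of Hcrt, Pmch, Oxt and Avp, as log2(TPM + 0.1), in each of the 12 highest Slc17a6 libraries, ordered from the highest Slc17a6 at left, with thin lines joining the points of a gene and a grey line at 0 TPM. Oxt and Avp move together and are high in 10 libraries, Hcrt is high in 6, and WT vehicle replicate 4 has all 4 genes at 0.

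The promoters of these 4 peptide genes are shown because all 4 genes were at or above 10 TPM in 6 of the high libraries and all 4 below it in 2. Each sequence is the RefSeq stretch of GRCm38.p6 from 250 bases before to 50 after the annotated start, 5′ to 3′ on the gene's strand, and capitals mark matches to TATAAA or CATAAA on either strand (both words end in the same bases and cannot start at the same place).
Hcrt, chr11:100762882-100763181 (minus strand): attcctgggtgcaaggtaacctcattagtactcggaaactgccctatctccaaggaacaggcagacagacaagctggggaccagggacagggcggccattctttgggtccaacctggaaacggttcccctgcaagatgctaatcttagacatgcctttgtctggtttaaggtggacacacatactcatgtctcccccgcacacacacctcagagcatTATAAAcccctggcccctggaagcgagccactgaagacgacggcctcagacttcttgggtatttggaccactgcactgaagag
Pmch, chr10:88090822-88091121 (plus strand): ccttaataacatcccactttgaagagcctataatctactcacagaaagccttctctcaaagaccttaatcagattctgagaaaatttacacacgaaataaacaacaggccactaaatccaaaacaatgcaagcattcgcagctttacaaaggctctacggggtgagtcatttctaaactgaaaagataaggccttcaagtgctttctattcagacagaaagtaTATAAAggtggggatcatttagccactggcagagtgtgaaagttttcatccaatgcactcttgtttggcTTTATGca
Oxt, chr2:130575919-130576218 (plus strand): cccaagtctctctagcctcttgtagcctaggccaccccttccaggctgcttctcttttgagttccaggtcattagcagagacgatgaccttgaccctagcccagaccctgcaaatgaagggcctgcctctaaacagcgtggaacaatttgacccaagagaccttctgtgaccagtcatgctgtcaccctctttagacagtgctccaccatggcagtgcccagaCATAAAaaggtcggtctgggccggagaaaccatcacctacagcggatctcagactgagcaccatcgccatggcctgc
Avp, chr2:130582539-130582838 (minus strand): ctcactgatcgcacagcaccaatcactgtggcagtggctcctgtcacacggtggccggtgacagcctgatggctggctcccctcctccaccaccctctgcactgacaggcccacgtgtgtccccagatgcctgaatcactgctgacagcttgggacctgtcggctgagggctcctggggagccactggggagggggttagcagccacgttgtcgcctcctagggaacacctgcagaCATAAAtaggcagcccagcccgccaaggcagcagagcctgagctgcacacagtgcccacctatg
The match began 33 bases before the start in Hcrt (TATAAA), 27 in Pmch (TATAAA), 27 in Oxt (CATAAA) and 14 in Avp (CATAAA), and Pmch held a second, antisense CATAAA after the start. One or other word was present in 22.8% of the 32851 promoters of the same length and in 9 of the 19 promoters of the hypothalamic peptide list (17 of its 19 genes had an entry). These are letter matches and not shown sites. A promoter entry was present for Fezf1 and Otp, with 13 and 20 CpG and neither word. Lhx5 had no entry.

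Among the other peptide genes, Gal, encoding galanin, was 0 to 152 TPM (median 23.9) against 0 to 15.6 TPM (median 0), and Adcyap1, encoding PACAP, 2.65 to 68.1 TPM (median 31.8) against 0 to 3.07 TPM (median 0.654). Ucn3, a urocortin of the medial amygdala and perifornical hypothalamus, was 0 to 59.7 TPM (median 9.82) in the high set and listed at 0 in each low library, and it was highest in Brd1+/- IMN replicate 7, a library with Hcrt at 0. Cartpt (4.20), Trh (2.77), Crh (1.78), Nts (1.52) and Gnrh1 (1.27) were also at least 2-fold higher. Trh, which encodes thyrotropin-releasing hormone, was 9.65 to 483 TPM (median 28.2) against 4.28 to 19.2 TPM (median 5.59). Gnrh1 was at 0 in most libraries and reached 29.4 TPM in 1 high library. Pomc and Agrp, the peptide genes of the arcuate nucleus, stayed low in both sets: Pomc was 1.69 to 15.8 TPM (median 3.03) against 1.12 to 5.29 TPM (median 1.88), and Agrp 0 to 2.82 TPM (median 0.532) against 0 to 2.55 TPM (median 0.325). Ghrh, below the filter, was 0 to 13.1 TPM (median 2.04) in the high set and at 0 in each low library. Tac1, a peptide gene shared with striatal projection neurons, differed by -1.70, with 27.8 to 277 TPM (median 119.9) in the high set and 67.2 to 692 TPM (median 464) in the low set.

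Receptors for these peptides, and the receptors and subunits of other signals, were also higher in the high set. Of 15 hypothalamic receptor genes, 11 were at least 2-fold higher and 1 lower, with a list median of 2.34. Ghsr, the ghrelin receptor gene, was 0.448 to 3.53 TPM (median 1.35) against 0 to 0.0887 TPM (median 0), and Hcrtr1, a hypocretin receptor gene, 2.88 to 21.3 TPM (median 6.43) against 0.167 to 1.69 TPM (median 0.550). Galr1, a galanin receptor gene, was 1.96 to 10.8 TPM (median 6.28) against 0.341 to 1.59 TPM (median 0.748). None of these 3 overlapped. Trhr (3.51), Avpr1a (3.41), Brs3 (3.24), Ntsr1 (2.56), Hcrtr2 (2.34), Crhr2 (1.56), Mc3r (1.35) and Mc4r (1.17) were higher with overlap. Mchr1, the receptor gene for the Pmch product, went the other way, at 9.47 to 30.7 TPM (median 13.5) against 12.3 to 71.3 TPM (median 41.6). Lepr, Npy5r and Oxtr differed by 0.02, 0.06 and 0.89. Of 7 genes of sex steroid signalling and its partners, Esr1, the oestrogen receptor alpha gene of the medial amygdala and hypothalamus, was 1.74 to 28.1 TPM (median 4.34) against 0.206 to 4.18 TPM (median 0.423). Prlr (3.96) and Esr2 (1.98) were higher too. Prlr also reached 116 TPM in 1 low library that held choroid plexus genes, WT vehicle replicate 1. By summed level, the receptor list was no higher in the high set (median 82.4 TPM) than in the middle libraries (86.3 TPM). Its median in the low set was 66.6 TPM. For the sex steroid list these medians were 41.2 (high), 41.8 (middle) and 21.4 TPM (low). By these medians it was the low set that lay apart.

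Of 7 glycine receptor and transporter genes, 6 passed the filter and 4 were at least 2-fold higher in the high set, and the median difference of the list was 1.53. Glra1, the adult alpha subunit gene of brainstem and subcortical neurons (chromosome 11, 55514238 to 55608198), was 5.21 to 22.9 TPM (median 10.9) in the high set and 0 to 4.10 TPM (median 0.0912) in the low set, without overlap. Glra3 was 10.7 to 30.4 TPM (median 19.9) against 0.377 to 14.2 TPM (median 1.92), Glra2 differed by 1.53 and Glra4 by 2.18. Glrb, the beta subunit gene, was abundant in both sets, at 123.7 to 237 TPM (median 168) against 98.2 to 203 TPM (median 134), and Slc6a5, the neuronal glycine transporter gene of glycine-releasing cells, was below the filter, with at most 0.166 TPM in the high set.

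In the low set, genes of striatal projection neurons stood high. All 10 listed were at least 2-fold lower in the high set, with a list median of -3.91 and a range from -5.92 to -2.81. Ppp1r1b, encoding the dopamine-signalling protein DARPP-32 (chromosome 11, 98348404 to 98357796), was 267 to 4218 TPM (median 2764) in the low set and 25.1 to 333 TPM (median 63.9) in the high set. The only low library under 333 TPM, the top of the high set, was Brd1+/- FLX replicate 6 at 267 TPM, which was also the low library nearest the boundary. Adora2a was 24.6 to 547 TPM (median 376.8) in the low set against 1.29 to 45.2 TPM (median 3.12), and Drd1, a dopamine receptor gene of the direct pathway, 12.6 to 205 TPM (median 164) against 1.99 to 34.4 TPM (median 6.57). Rgs9, a regulator of striatal G-protein signalling, and Syndig1l did not overlap, with Rgs9 at 63.2 to 737 TPM (median 551) against 10.7 to 61.9 TPM (median 32.3), and Syndig1l at 30.9 to 429 TPM (median 229.7) against 3.39 to 23.5 TPM (median 14.0). Drd2 (-3.35), Pde10a (-3.80), Gpr6 (-4.31) and Rasd2 (-2.81) were lower in the high set too. Within the low set, the 4 libraries with the least Slc17a6, all at or below 1.04 TPM, had 3569 to 4218 TPM of Ppp1r1b. Penk and Pdyn, opioid peptide genes expressed in striatum and in the central amygdala, differed by -3.13 and -2.22, and Penk was 716 to 3536 TPM (median 2281) in the low set against 63.6 to 886 TPM (median 228).

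The other glutamate transporters did not mirror Slc17a6. Slc17a7 was 3.42 to 746 TPM (median 25.2) in the high set and 1.87 to 670.1 TPM (median 19.3) in the low set, and it was highest in the middle libraries, 11.2 to 1346 TPM (median 518). It reached 100 TPM, a level chosen after the values were seen, in 5 of 12 high, 18 of 24 middle and 4 of 12 low libraries. Slc17a7 exceeded Slc17a6 in 5 high, 22 middle and 12 low libraries. Slc17a8, the VGLUT3 gene of scattered striatal and cortical cells, differed by -2.06 and Slc18a3, the acetylcholine transporter gene, by -1.31, both lower in the high set, and Slc18a2, the monoamine transporter gene, was higher (1.13). In the pallial list, which holds genes of cortical and basolateral amygdala glutamate neurons, the summed level was 229 to 2082 TPM (median 371) in the high set, 392.2 to 3093 TPM (median 1518) in the middle libraries and 437.7 to 1708 TPM (median 699) in the low set. Bdnf (3.05), Neurod1 (3.04), Tbr1 (2.14) and Cux2 (1.22) were at least 2-fold higher in the high set, while Camk2a and Lmo3 differed by -0.92 and -0.69. Within the high set, Slc17a7 ran from 746 TPM in WT vehicle replicate 4, the library with none of the 4 hypothalamic peptides, to 3.42 TPM in WT FLX replicate 1, the library with the most Oxt and Avp.

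**Figure D3:**
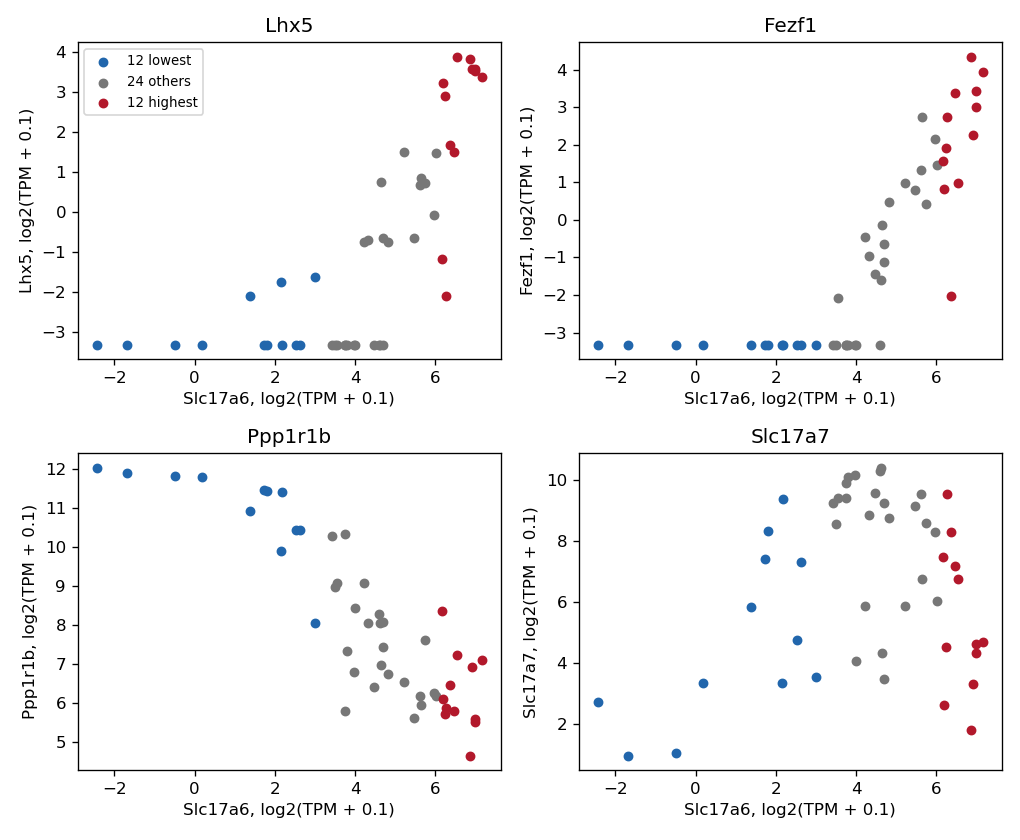
Levels of Lhx5, Fezf1, Ppp1r1b and Slc17a7 against Slc17a6, all as log2(TPM + 0.1), 1 point per library for 48 libraries, coloured by set. Fezf1 is at the floor in each of the 12 lowest libraries, Lhx5 reaches 14.6 TPM among the highest, Ppp1r1b runs downward from 4218 TPM, and Slc17a7 is highest in the middle libraries, with a median of 518 TPM.

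Of 13 GABA neuron genes, 2 were at least 2-fold higher in the high set and 4 lower, and the genes that all GABA neurons share overlapped in level, with Gad1 at 269.8 to 589 TPM (median 388) against 284 to 749 TPM (median 441.6), and Slc32a1, the vesicular GABA transporter gene, at 116 to 277 TPM (median 194) against 127.2 to 272 TPM (median 209). Those past 2-fold were transcription factors of GABA neuron lineages, with Dlx1 (1.91) and Dlx2 higher in the high set and Dlx5 (-1.16), Dlx6 (-1.48), Six3 (-1.33) and Lhx8 (-1.19) lower. Dlx2 was 4.48 to 16.01 TPM (median 11.6) against 1.66 to 16.2 TPM (median 3.03). In the central amygdala list, Dlk1 was 7.76 to 94.7 TPM (median 29.98) against 0 to 25.6 TPM (median 0), and Tac2, the neurokinin B gene, 13.2 to 346 TPM (median 144) against 0 to 317 TPM (median 6.54). Prkcd and Sst, markers of central amygdala neurons, differed by 0.13 and 0.39. Of the 8 genes of this list, 4 were at least 2-fold higher and 2 lower. In the thalamic and habenular list, 12 of 14 genes passed the filter. Ntng1, a netrin-G gene of thalamic and other projection neurons, was 11.0 to 43.2 TPM (median 17.3) against 2.75 to 7.09 TPM (median 5.26), without overlap. Chrna3 (1.88), Tcf7l2 (1.71) and Rgs16 (1.19) were also higher and Synpo2 (-1.22) lower. Other genes of thalamus and habenula were near 0 difference: Rora 0.05, Gbx2 0.15 and Chrnb4 0.18, while Pou4f1, the defining habenular factor, was below the filter at up to 0.749 TPM. The thalamic genes as a list had a median difference of 0.23, beside 2.34 for the hypothalamic receptors.

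Genes of non-neuronal cells differed little, apart from a few. All 8 oligodendrocyte genes lay between 0.04 and 0.42, the 7 microglial genes between -0.27 and 0.02 and the 6 endothelial genes between -0.20 and 0.22. The oligodendrocyte sum nevertheless ranged widely inside each set, 691 to 16387 TPM (median 6083) in the high set and 2146 to 14996 TPM (median 3613) in the low set. Among the 8 astrocyte genes, Agt, the angiotensinogen gene that diencephalic astrocytes express strongly, was 91.8 to 280.1 TPM (median 224) against 5.38 to 182 TPM (median 18.6), and Slc6a11, the GABA transporter gene GAT-3, 145.1 to 420.5 TPM (median 367) against 39.1 to 287 TPM (median 54.1). Gfap, Aqp4 and Aldh1l1 differed by 0.68, 0.31 and 0.31. Choroid plexus genes were highest in 1 library of each set: Ttr was 28369 TPM in WT vehicle replicate 1 of the low set and 8383 TPM in WT FLX replicate 2 of the high set, with medians of 7.62 and 9.03 TPM. Otx2 (1.36) and Clic6 (-1.48) of that list and Rsph1 (1.76) and Dynlrb2 (-1.17) of the ependymal list passed 2-fold. Without those 2 libraries, a setting added after the data were seen, 2172 genes were at least 2-fold higher and 1336 at least 2-fold lower.

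**Figure D4:**
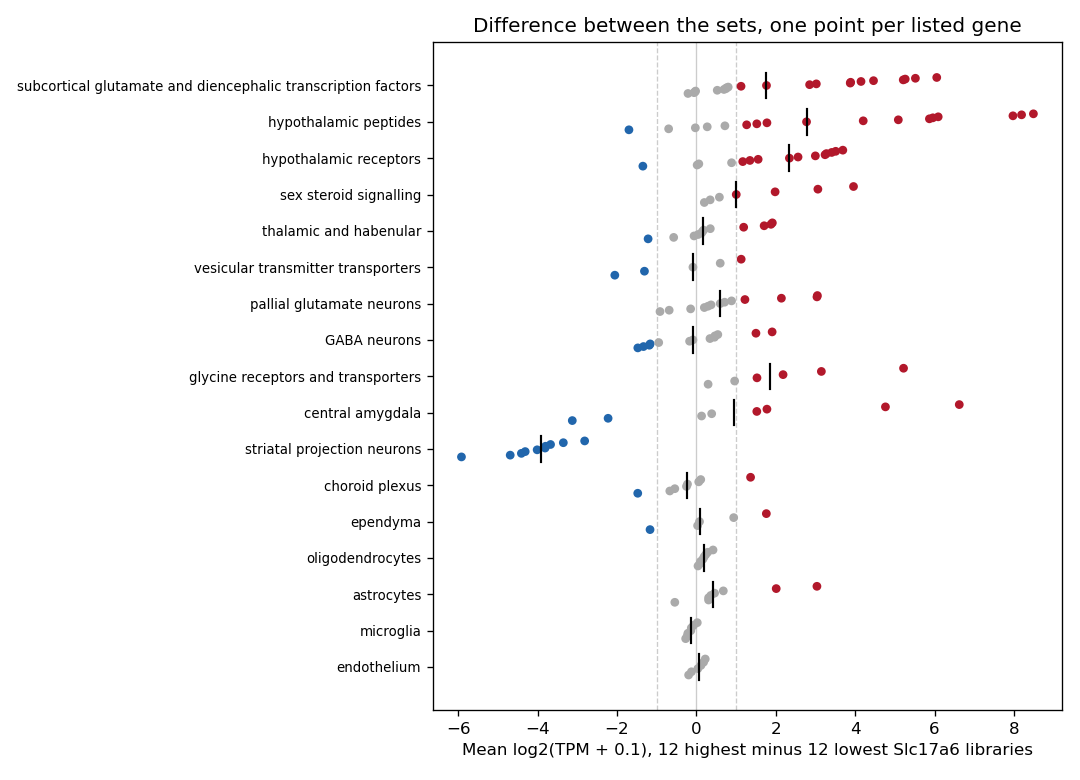
Difference of mean log2(TPM + 0.1) between the 12 highest and 12 lowest Slc17a6 libraries, 1 point per listed gene that passed the filter on low values, by list, with red and blue points at least 2-fold apart, dashed lines at 2-fold and a black bar at the median of the points shown. Peptides reach 8.49, striatal genes reach -5.92, and oligodendrocyte, microglial and endothelial genes lie within the lines.

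Outside the lists, the 10 protein-coding genes with the largest differences upward and at least 1 TPM in the high set were Lbhd2, Arhgap36, Calb2, AW551984, Uncx, Pgr15l, Irs4, Igsf1, Samd3 and Ngb. Lbhd2 led, at 2.97 to 26.9 TPM (median 19.96) against 0 to 2.69 TPM (median 0). Calb2, encoding the calcium-binding protein calretinin, was 123 to 424 TPM (median 209.8) against 0.914 to 36.9 TPM (median 2.55), and with Lbhd2, Uncx and Pgr15l it did not overlap. Uncx, a homeodomain factor, was 1.90 to 8.75 TPM (median 5.45) against 0 to 1.04 TPM (median 0), and Irs4, an insulin receptor substrate gene, 3.78 to 54.9 TPM (median 12.7) against 0 to 6.60 TPM (median 0.249). Their differences, with those of the other 6, ran from 4.46 to 6.74. Downward, the 10 genes were Cd4, Sh3rf2, Asb11, Lrrc10b, Ido1, Ptpn7, Atp6ap1l, Scn4b, Gabrd and Dmkn, with differences from -4.72 to -6.21. Scn4b, a sodium channel subunit gene, was 15.4 to 1267 TPM (median 765) in the low set against 3.11 to 41.7 TPM (median 22.3), and Gabrd, a subunit of extrasynaptic GABA receptors, 9.70 to 177 TPM (median 129.96) against 0.473 to 16.8 TPM (median 3.18). Cd4, best known as the co-receptor gene of helper T cells, was 1.92 to 95.6 TPM (median 52.8) in the low set against 0 to 5.17 TPM (median 0.425), and Asb11 alone of the 10 did not overlap.

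The genes whose pattern was most like that of Slc17a6 over all 48 libraries were sought among 13811 protein-coding genes with a mean of at least 1 TPM. The 10 with the highest Pearson r of log2(TPM + 0.1) were Cib2, Tmem145, Kcna3, Tuba1b, Grik1, Borcs7, Txnl1, Arl4c, Resp18 and Ndfip1, with r from 0.926 to 0.959 and Spearman rho from 0.880 to 0.943. The points share the library as their source, and no test is given because the sets and the rule used the same gene. Without the 2 libraries farthest from the median, r ran from 0.900 to 0.950. Cib2, a calcium and integrin binding protein gene, was 37.1 to 82.6 TPM (median 58.1) against 6.27 to 26.6 TPM (median 14.7), and Tmem145 56.1 to 102 TPM (median 75.8) against 4.68 to 29.4 TPM (median 16.2). Grik1, a kainate receptor subunit gene, was 17.8 to 40.1 TPM (median 28.0) against 0.792 to 15.1 TPM (median 3.57), and Kcna3, a potassium channel gene, 14.9 to 25.4 TPM (median 19.0) against 1.86 to 10.4 TPM (median 6.42). All of the 10 but Borcs7 were without overlap. None of the peptide genes was among them.

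Within labelled groups the direction was checked with the 4 highest against the 4 lowest Slc17a6 libraries of each group of 8, so that the libraries compared shared genotype and treatment. Of the 60 listed genes at least 2-fold higher in the high set, 41 were higher in each of the 6 groups, and of the 23 at least 2-fold lower, 15 were lower in each. Over all genes at least 2-fold higher or lower, 53.5% of 2027 and 43.8% of 1389 kept their direction in each of the 6 groups. These genes were chosen on the same libraries, so the choice largely fixes the direction and nothing is read from these counts. Lhx5 was higher by 2.88, 5.58 and 4.41 in WT vehicle, IMN and FLX mice, and by 3.19, 4.37 and 0.25 in the Brd1+/- groups in the same order. Fezf1 was higher by 4.12, 4.72, 3.10, 3.23, 5.57 and 0.71. Ppp1r1b differed by -2.80, -3.70, -1.91, -3.79, -4.12 and -1.60. For all 3 genes the difference of smallest size was that of Brd1+/- FLX, the group in which no library passed 25.9 TPM of Slc17a6. Within the vehicle mice of the sets alone (3 high, 5 low), 58 of the 60 genes were higher (Otx2 was lower and Hcrt at 0 throughout), and within the drug mice (9 high, 7 low), 60 of 60. The shares over all genes at least 2-fold higher were 97% and 99.8%.

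The 24 libraries in neither set were not used in the contrast of the sets, though the same Slc17a6 values placed them there. The listed genes, Lhx5 and Fezf1 among them, were chosen with earlier results of these data known. Their slopes are thus no independent support for the pattern. In these 24 libraries, Slc17a6 ran from 10.7 to 64.3 TPM. The slope of each gene on it was tested with limma over 25668 genes, with Benjamini-Hochberg adjustment. The slope is the change in log2(TPM + 0.1) per doubling of Slc17a6 plus the offset. A total of 921 genes (3.59%) had a positive slope that passed, and 151 (0.588%) a negative one. After median-ratio scaling, the counts were 410 and 186, and with the 6 labelled groups as terms 169 and 29. The counts also rested on single libraries, with 524 and 78 without WT IMN replicate 6, 609 and 90 without Brd1+/- IMN replicate 1, and 600 and 88 without Brd1+/- vehicle replicate 4. The positive count was 590 without Brd1+/- FLX replicate 3, and the negative one was 88 without Brd1+/- FLX replicate 5 and 90 without Brd1+/- IMN replicate 8. Of 159 listed genes tested, 24 passed with a positive slope and 1 with a negative one. Fezf1 had a slope of 2.21 ± 0.23 (SE; adjusted p = 1.5e-05) and Lhx5 one of 1.88 ± 0.29 (adjusted p = 0.00077). The size of these slopes depended on the offset: Fezf1 ran from 0.95 at 1 TPM to 3.55 at 0.01 TPM, and Lhx5 from 0.66 to 3.38. Over these 24 libraries, Pearson r with Slc17a6 was 0.90 for Fezf1 (permutation p = 1e-05, adjusted 1.3e-05) and Spearman rho 0.89 (permutation p = 1e-05, adjusted 1.3e-05). For Lhx5, r was 0.81 (permutation p = 2e-05, adjusted 2e-05) and rho 0.79 (permutation p = 1e-05, adjusted 1.3e-05), over 4 relations and 100000 permutations whose smallest p is 1e-05. Without the 2 libraries farthest from the median of Slc17a6, r was 0.88 and 0.78. The adjustment over 4 relations does not allow for the choice of these 2 genes, so the permutation p-values are no independent support either.

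By role, 9 of 18 tested transcription factors passed upward: Fezf1, Lhx5, Otp (2.50 ± 0.45, adjusted p = 0.00293), Sim1 (1.49 ± 0.25, 0.00208), Lhx9, Barhl2, Nhlh2, Ebf3 and Rax. Of 15 peptide genes, Ucn3 (3.44 ± 0.59, adjusted p = 0.00223) and Adcyap1 (1.05 ± 0.22, 0.00818) passed. Oxt reached 0.1 TPM in too few of the middle libraries to be tested. Avp (2.39 ± 0.84, adjusted p = 0.112) and Pmch (0.87 ± 0.78, 0.624) did not pass. The middle library with the most of both, Brd1+/- IMN replicate 4, had 584 TPM of Oxt and 1410.4 TPM of Avp at 28.1 TPM of Slc17a6, above every high library for both. Galr1, Hcrtr2 and Ntsr1 passed of 15 receptor genes, 2 of 7 sex steroid genes, Esr1 among them, Glra1 (2.37 ± 0.46, adjusted p = 0.00495), Glra2 and Glra3 of 6 glycine genes, 4 of 13 GABA neuron genes, Dlx1, Dlx2 and Lhx6 among them, and Rgs16 of 12 thalamic genes. Of 10 striatal genes, Ppp1r1b fell with Slc17a6 (-1.10 ± 0.25, adjusted p = 0.0136) and the other 9 did not pass, Adora2a among them (-0.94 ± 0.57, 0.413). No gene passed of the vesicular transporter, pallial, central amygdala, choroid, ependymal, oligodendrocyte, astrocyte, microglial and endothelial lists.

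The 5 protein-coding genes with the smallest p among those called upward, at a mean of at least 1 TPM, were Fezf1, Gfra2, Olfm2, Cib2 and Tnfrsf8. Gfra2, the co-receptor gene for neurturin, had a slope of 0.74 ± 0.08 (adjusted p = 2.4e-05), Olfm2 one of 0.53 ± 0.06 (3.8e-05), and Tnfrsf8 one of 1.70 ± 0.22 (0.00029). Downward they were Mettl23 (-0.36 ± 0.05, adjusted p = 0.00069), Ccdc88c, Man1a, Wipf3 and Jph1, with slopes no steeper than -0.63 ± 0.11. With the 6 labelled groups as terms, 8 of the 25 listed calls were kept, those of Fezf1, Lhx5, Otp, Sim1, Ucn3, Adcyap1, Esr1 and Glra3, and each of the 17 others kept its sign. Ebf3, Esr1, Dlx1, Dlx2, Rax, Lhx6, Ntsr1 and Hcrtr2 were among 9 listed genes that lost the call when a single library was left out, with WT IMN replicate 6, Brd1+/- IMN replicate 1 and Brd1+/- IMN replicate 8 each ending 7 of these calls.

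**Figure D5:**
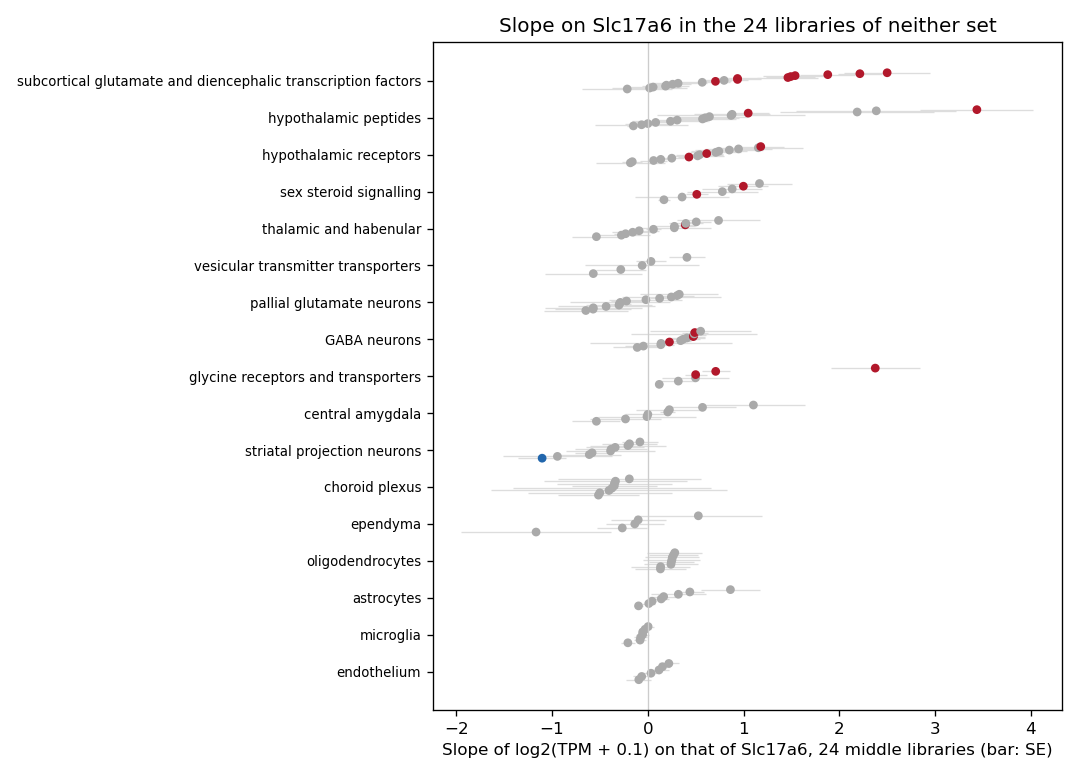
Slope of each listed gene's log2(TPM + 0.1) on that of Slc17a6 over the 24 libraries of neither set (limma), by list, with bars of 1 SE and red (upward) or blue (downward) points where the adjusted p was under 0.05. Ucn3, Otp and Glra1 have the steepest called slopes, at 3.44, 2.50 and 2.37, and only Ppp1r1b is called downward.

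The values of Slc17a6 that ranked the libraries were also compared between the labelled groups. The FLX groups are given first because of where these same values lay, with no Brd1+/- FLX library in the high set, so the p-values that follow are no independent support for that pattern. It was 4.33 to 143 TPM (median 82.8) in WT FLX and 0.211 to 25.9 TPM (median 12.5) in Brd1+/- FLX, with overlap. The mean was 77.4 ± 50.3 TPM (SD, n = 8) and 13.5 ± 8.00 TPM (SD, n = 8), a log2 difference of -2.55 (2-sided exact permutation test, p = 0.00995, adjusted over 7 comparisons 0.0696). After adjustment this did not pass. Leaving out each of the 16 libraries in turn gave differences from -3.06 to -1.86. The adjusted exact p was 0.0577 to 0.151 in 15 of these 16 cases, and 0.00544 without WT FLX replicate 4, the lowest of its group, whose removal selects on the value tested. WT FLX against WT vehicle differed by 1.95 (exact p = 0.124, adjusted 0.433), and Brd1+/- FLX against Brd1+/- vehicle by -0.84 (exact p = 0.461, adjusted 0.879). Each of these shares its FLX mice with the comparison of the FLX groups and its vehicle mice with other comparisons. The other 4 comparisons had adjusted exact p of 0.879, with differences from -0.38 to 0.80. The smallest p that 12870 arrangements allow is 0.00016, so the design could have reached the threshold.

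Across all genes, Brd1+/- FLX against WT FLX gave 364 calls among 23635 tested (limma, 1.54%), of which 325 were lower in Brd1+/- FLX. Of 150 listed genes tested, 6 were called, all lower: Lhx5 (-4.23 ± 0.88, SE, adjusted p = 0.0284), Fezf1 (-3.99 ± 0.86, 0.0322), Ebf3 (-2.34 ± 0.51, 0.0328), Glra1 (-4.29 ± 0.86, 0.0254), Glrb (-0.40 ± 0.09, 0.0372) and Slc6a11 (-1.45 ± 0.30, 0.0292). Lhx5 was 6.65 ± 6.58 TPM (SD, n = 8) in WT FLX and 0.0950 ± 0.195 TPM in Brd1+/- FLX. Avp (-5.56 ± 1.60, adjusted p = 0.0888), Otp (-3.79 ± 1.05, 0.079) and Ppp1r1b (1.27 ± 0.79, 0.454) did not pass. Except for Glrb, the called genes were at least 2-fold apart between the Slc17a6 sets as well. WT FLX gave 5 libraries to the high set and 1 to the low set, and Brd1+/- FLX gave 0 and 2. The 2 comparisons thus share libraries, and nothing is read from this overlap of genes. Each of the 6 calls was lost when some single library was left out, and the count of calls ran from 70 without WT FLX replicate 7 to 490 without Brd1+/- FLX replicate 6. With the log2 level of Slc17a6 of each library as a term in the fit, a setting added after the data were seen, no gene was called, and 2483 had an unadjusted p under 0.05 against 3928 without the term. Lhx5 then differed by -2.81 (adjusted p = 0.311) and Fezf1 by -2.25 (0.343). Whether genotype or the tissue content that moves with Slc17a6 accounts for these calls cannot be told apart in this comparison.

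The other labelled comparisons called 0 or 1 listed gene, where few of all genes were called. Brd1+/- against WT gave 172 calls (0.708%) within vehicle and 4 (0.017%) within IMN, with no listed gene. WT FLX against WT vehicle gave 79 (0.335%) and Brd1+/- FLX against Brd1+/- vehicle 178 (0.731%), again with none listed. Brd1+/- IMN against Brd1+/- vehicle gave 188 (0.776%), and the 1 listed gene was Rorb, a gene of cortical and thalamic neurons, whose difference between the Slc17a6 sets was 0.20. WT IMN against WT vehicle gave 0 calls by limma (0%), with 1084 genes at an unadjusted p under 0.05. With Slc17a6 as a term, these 6 counts were 193, 6, 81, 185, 243 and 0 in the same order, and 171 of the 172 calls within vehicle, 42 of the 79 of WT FLX and 187 of the 188 of Brd1+/- IMN were kept. In WT FLX against WT vehicle, the count moved from 1 without WT FLX replicate 7 to 956 without WT vehicle replicate 1, the low-set library rich in Ttr.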

How the data were processed

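Amygdala punches of 48 mice were sequenced as single-end RNA-seq, 1 library a mouse. The authors aligned reads with HISAT2 (2.1.0) and quantified genes with StringTie (1.3.4) on GRCm38, and deposited 1 table of TPM per gene and library, so the read depth is unknown and no count test was run. Column sums ran from 999524 to 999772 TPM. Samples were grouped by their labels, and replicates are separately labelled mice.

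The members and the 17 gene lists (175 genes, 174 in the table) were chosen with earlier results of these data known. The 12 libraries with the highest and the 12 with the lowest Slc17a6 were compared by the mean difference of log2(TPM + 0.1), without a test, over genes with at least 0.1 TPM in 12 of 48 libraries. Slopes in the other 24 libraries (at least 0.1 TPM in 8) and the labelled comparisons (at least 0.1 TPM in 8 of 16) were fitted with limma (3.58.1, eBayes with a trend, R 4.3.3) and Benjamini-Hochberg adjustment at 0.05, in place of the authors' count test. Slc17a6 itself was compared by exact permutation. Python 3.11.15, numpy 2.4.6, pandas 2.3.3 and scipy 1.17.1 were used, and the fits were tested on simulated data.

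Named were listed genes at least 2-fold apart between the sets (and others where a count needs its exceptions), the 10 protein-coding genes outside the lists with the largest difference in each direction and at least 1 TPM in the higher set, the 10 most correlated with Slc17a6, up to 5 a direction with the smallest p for the slope, and listed genes called between labelled groups. Alternatives were the pseudocount, the filter, median-ratio scaling, 8 or 16 libraries a set, the labelled groups or the range of mouse codes as terms, a replicate block, 1 fit of all libraries, no trend and leaving out each library. Those added after the data were seen left out the 2 libraries richest in Ttr, took vehicle or drug mice alone, or had Slc17a6 as a term. Kiss1 was not analysed here, and 4 listed genes are counted but not reported by name.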

Additional observations from a re-analysis of the deposited data

Results flagged for a closer look

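Slc17a6 in Brd1+/- FLX replicate 2 was 0.211 TPM, far from the nearest of the other 7 libraries of its group at 7.89 TPM. On the log2(TPM + 0.1) scale, the gap was 0.734 of the group's whole range, above Dixon's critical value for 8 samples. On TPM itself it was 0.300 of the range, below that value. It was the only library past that value on the log2 scale for Slc17a6 among the 6 groups tested, and chance flags about 1 in 20 groups. The library belongs to the low set, with 3834 TPM of Ppp1r1b. Leaving it out gave a Slc17a6 difference of -1.86 between Brd1+/- FLX and WT FLX.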

How the results depend on the processing

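The direction of the 83 listed and 20 other genes of the high and low sets held under every alternative except that, with vehicle mice alone, Otx2 was -0.56 and Hcrt, at 0 in those libraries, did not differ. Of 1442 such values, 1317 moved by less than the spread between libraries. Differences near 2-fold could fall below it when 1 library was left out, among them Lmx1b (0.66), Gnrh1 (0.70), Lhx8 (-0.70) and Dynlrb2 (-0.48). Genes at least 2-fold higher and lower numbered 3046 and 2472 at a pseudocount of 0.01, 958 and 599 at 1, and 831 and 512 with 4 against 4 libraries inside each group. With median-ratio scaling they were 1645 and 1682, so the excess of higher genes was lost. Genes with each high library above or below each low library numbered 260 and 140 with that scaling, 1550 and 700 with 8 libraries a set, 137 and 8 with 16, 2731 and 1025 with vehicle mice alone and 971 and 210 with drug mice alone. Leaving out a library gave 1891 to 2250 higher, 1356 to 1484 lower, 431 to 779 above and 89 to 328 below, where Brd1+/- FLX replicate 6 set both upper ends and 1.5e+02 were below without WT FLX replicate 8.

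In the middle libraries, positive and negative slopes numbered 410 and 186 with median-ratio scaling, 169 and 29 with groups as terms, and 592 positive with the code range. The first code range held all the vehicle mice, so that term also separated vehicle from drug mice. Leaving out a library gave 524 (without WT IMN replicate 6) to 1203 and 78 to 199. Of the 25 listed calls, 16 held with median-ratio scaling and 20 with the code range. The cause was not tested.

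Calls in the labelled comparisons, with no filter, a filter at 1 TPM and 1 fit of all 48 libraries in this order, numbered 294, 24 and 4.1e+02 for Brd1+/- vehicle against WT vehicle, 51, 128 and 10 for WT FLX against WT vehicle, 294, 23 and 439 for Brd1+/- IMN against Brd1+/- vehicle, and 275, 24 and 415 for Brd1+/- FLX against Brd1+/- vehicle. For Brd1+/- FLX against WT FLX they were 224 with no filter, 29 in 1 fit and 0 with Slc17a6 as a term. Leaving out a library gave 80 to 349, 1 to 956, 89 to 174, 88 to 166 and 70 to 490 in that order, 3 to 6 for Brd1+/- IMN against WT IMN and 0 to 3 for WT IMN against WT vehicle. The Slc17a6 difference between Brd1+/- FLX and WT FLX ran from -3.06 to -1.86.

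By label, samples share only a replicate number, and the paper calls the WT and Brd1+/- mice litter-matched without naming pairs. The lowest correlation of same-numbered deviations was -0.27 or below in each comparison, and at most 2 of 8 pairs correlated best with their own number. The median same-number correlation was 0.26 in Brd1+/- IMN against WT IMN, beside -0.07 for other pairs. It was 0.28 beside 0.001 in Brd1+/- IMN against Brd1+/- vehicle, and at most 0.03 in the other comparisons. With the replicate block, limma calls numbered 63, 0 (3429 at an unadjusted p under 0.05), 87, 81 and 46 in the same order, and the Slc17a6 difference between Brd1+/- FLX and WT FLX stayed at -2.55 (exact p = 0.0312, adjusted 0.219).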
